A study of Mus musculus with 4 samples.

Results

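The cell cycle genes described here are 44 mouse genes named by role in the division cycle, chosen by their symbols and found as 1 row each among the 23356 gene rows of the authors' deposited table. They fall into 15 genes of G1, 13 of S phase and 16 of G2 and mitosis. SAA1 cells were T helper 17 (Th17) cells, CD4 T cells that make IL-17, to which recombinant mouse SAA1 was added, at 2 ng/ml as labelled. SAA1 is serum amyloid A1, a protein of the acute phase. Vehicle cells were Th17 cells with the treatment label none, whose titles say veh, read here as vehicle. All cells came from C57BL/6 mice aged 6 to 8 weeks and spent 48 h in Th17 culture, and its cytokines are not named in the labels. Each group holds 2 libraries of total RNA, and nothing says that they came from separate cultures or animals, so the p-values may measure technical spread.

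A dividing cell passes through G1, in which D-type and E-type cyclins with their kinases release E2F factors from the retinoblastoma protein, then through S phase, in which DNA is copied, and then through G2 and mitosis. Inhibitors of the CIP/KIP and INK4 families hold the kinases back in G1. E2F factors drive the replication genes, and a complex of B-MYB or FOXM1 with MuvB proteins drives the mitotic genes. Activated T cells divide many times in the first days of culture and are known for high D-type cyclin and MYC.

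Expression is given in FPKM (fragments for each kilobase of a transcript, scaled to depth), with a single value for each group, so no library's own value can be shown. Of the 44 members, 43 reached 1 FPKM and were tested by the authors with Cuffdiff, and a gene is called where its adjusted p over all 11481 tested genes is under 0.05. By the authors' deposited table, 4 of the 43, or 9.30%, were called, 1 higher and 3 lower with SAA1, and all 4 are G1 genes. Over all tested genes 6.52% were called, 3.97% higher and 2.55% lower. Of the 14 tested G1 genes 28.6% were called, against 0 of 29 tested S and G2/M genes in the authors' deposited table, of which 1 had an unadjusted p under 0.05. Of 30 tested genes in a wider list of other G1 regulators, given below, 0 were called, so the G1 share belongs to the members only. At an unadjusted p under 0.05 stood 6 of the 43 members, against 15.8% of all tested genes. In whole cultures, fewer cells in a phase and less RNA per cell cannot be told apart.

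The promoters shown here are examples, and no link between a promoter and the difference with SAA1 was tested. Cdkn1a and Ccng1 are genes of the p53 response that were lower with SAA1, Cdkn1b is the inhibitor that was higher, and the others belong to S and G2/M genes whose difference did not pass the test. Each is the stretch just before the RefSeq transcript start, on GRCm38.p6, written 5′ to 3′ on the strand of the gene. It is 160 bases long, except for Ccng1 with 250 bases, whose p53 element lies in the added part. Capitals mark a p53 element, the NF-Y box (CCAAT), the CHR element (TTTGAA) or an E2F word (TTTCGCGC, TTTGGCGC, TTTCCCGC or TTTGCCGC), each searched on both strands. E2F words overlap each other in Mcm5 and Mcm6.
Cdkn1a, chr17:29090819-29090978, plus strand: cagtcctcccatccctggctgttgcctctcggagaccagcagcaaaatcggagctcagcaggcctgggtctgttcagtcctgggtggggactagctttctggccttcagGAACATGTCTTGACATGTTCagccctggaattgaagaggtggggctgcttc
Ccng1, chr11:40755287-40755536, minus strand: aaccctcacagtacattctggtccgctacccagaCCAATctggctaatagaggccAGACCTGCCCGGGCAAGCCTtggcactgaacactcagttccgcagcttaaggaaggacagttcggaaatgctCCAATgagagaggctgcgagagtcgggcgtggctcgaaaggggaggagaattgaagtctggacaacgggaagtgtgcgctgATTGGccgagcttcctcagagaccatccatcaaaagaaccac
Cdkn1b, chr6:134920241-134920400, plus strand: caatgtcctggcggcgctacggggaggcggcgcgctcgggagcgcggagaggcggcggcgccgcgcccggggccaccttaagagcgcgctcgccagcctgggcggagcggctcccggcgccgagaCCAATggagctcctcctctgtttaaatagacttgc
Mcm5, chr8:75109349-75109508, plus strand: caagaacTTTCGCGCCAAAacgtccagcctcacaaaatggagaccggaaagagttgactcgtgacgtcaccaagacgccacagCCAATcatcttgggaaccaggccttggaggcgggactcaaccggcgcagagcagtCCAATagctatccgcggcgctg
Mcm6, chr1:128359706-128359865, minus strand: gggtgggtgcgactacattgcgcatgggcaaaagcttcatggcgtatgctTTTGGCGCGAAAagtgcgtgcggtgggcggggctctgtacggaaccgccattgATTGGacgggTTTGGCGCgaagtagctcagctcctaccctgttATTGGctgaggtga
Cdk1, chr10:69352913-69353072, minus strand: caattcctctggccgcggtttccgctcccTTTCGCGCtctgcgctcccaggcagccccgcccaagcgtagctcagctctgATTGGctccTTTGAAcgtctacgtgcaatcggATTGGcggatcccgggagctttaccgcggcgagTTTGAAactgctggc
Cdc20, chr4:118437344-118437503, minus strand: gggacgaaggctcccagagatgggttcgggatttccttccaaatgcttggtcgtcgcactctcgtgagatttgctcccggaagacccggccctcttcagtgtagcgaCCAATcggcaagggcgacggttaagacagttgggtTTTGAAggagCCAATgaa

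The promoter words were counted by phase, with no test between phases. RefSeq promoters of 250 bases before to 50 after the start were matched by symbol for 35 of the 44 members. No entry was found under the symbols Ccnd1, Ccnd2, Rb1, Myc, Ccne2, Mcm4, Gins2, Ccna2 and Aurkb. The promoters of Ccnd2 and Myc, both called lower, were thus not searched. The CHR element stood in the promoters of 10 of 14 G2/M genes, 1 of 11 S genes and 1 of 10 G1 genes, against 20.2% of all 27025 genes in the promoter table. An E2F word stood in 6 of 11 S genes, 1 of 14 G2/M genes and 2 of 10 G1 genes, against 2.61% of all genes. The NF-Y box stood in 13 of 14 G2/M genes, 8 of 11 S genes and 5 of 10 G1 genes, against 41.1% of all genes. All 44 members are protein-coding, while the 27025 genes include others. Over the 17492 protein-coding genes the shares were 18.5% for the CHR element, 3.29% for an E2F word and 42.3% for the NF-Y box. These are matches of letters in a window and not measured sites.

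Of the CDK inhibitors of the CIP/KIP family, Cdkn1a was called lower and Cdkn1b higher with SAA1, while Cdkn1c, which encodes p57, was at 0.413 FPKM in SAA1 cells and 0.143 FPKM in vehicle cells and was not tested. Cdkn1a encodes p21, an inhibitor of CDK2 complexes that p53 induces, and had 42.3 FPKM in SAA1 cells, against 67.8 FPKM in vehicle cells. Its level was thus lower with SAA1, and fell by 37.6%, with a log2 ratio of -0.68 ± 0.20 (SE, the log2 ratio over the authors' test statistic). The Cuffdiff adjusted p of Cdkn1a in the authors' deposited table was 0.0019, the smallest value there, which 300 rows share. Cdkn1b encodes p27, which holds resting T cells back from division, and had 45.4 FPKM in SAA1 cells, against 30.4 FPKM in vehicle cells. It was 49.7% higher with SAA1, with a log2 ratio of 0.58 ± 0.21 and a Cuffdiff adjusted p in the authors' deposited table of 0.0047.

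FPKM is per length, so the levels of the inhibitors can be set side by side, with no test of their ratio. By the group values Cdkn1a stood at 0.932 times Cdkn1b in SAA1 cells and at 2.23 times Cdkn1b in vehicle cells. Their sum was 87.8 FPKM in SAA1 cells and 98.2 FPKM in vehicle cells. Cdkn2c, which encodes the INK4 inhibitor p18 of CDK4 and CDK6, was at 11.2 FPKM in SAA1 cells and 12.1 FPKM in vehicle cells, with a Cuffdiff adjusted p in the authors' deposited table of 0.89. On mm10, Cdkn1a spans chromosome 17 from 29090986 to 29100722 and Cdkn1b chromosome 6 from 134920401 to 134925525, each a protein-coding gene given whole with its introns.

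Among the G1 cyclins, only cyclin D2 passed the test. Ccnd2, the D-type cyclin most tied to growth signals in lymphocytes, had 94.96 FPKM in SAA1 cells, against 138 FPKM in vehicle cells. It fell with SAA1, with a log2 ratio of -0.54 ± 0.20 and a Cuffdiff adjusted p in the authors' deposited table of 0.0047. The other D-type cyclins were not called. Ccnd3, cyclin D3, was at 66.9 FPKM in SAA1 cells and 72.9 FPKM in vehicle cells, a log2 ratio of -0.13 ± 0.29. Ccnd1, cyclin D1, was listed at 0.262 FPKM in SAA1 cells and 0.212 FPKM in vehicle cells and was not tested. Cyclin D2 was the most abundant D-type cyclin transcript in both groups, at 58.6% of the D-type sum in SAA1 cells and 65.4% in vehicle cells. That sum was 162 FPKM in SAA1 cells and 211 FPKM in vehicle cells.

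The E-type cyclins, which act at the entry to S phase, were not called. Ccne1 was at 53.7 FPKM in SAA1 cells and 57.9 FPKM in vehicle cells, a log2 ratio of -0.11 ± 0.20. Ccne2 was at 39.2 FPKM in SAA1 cells and 45.2 FPKM in vehicle cells, a log2 ratio of -0.21 ± 0.27.

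The kinases that these cyclins bind were not called either. Cdk4 was the most abundant G1 member, at 178 FPKM in SAA1 cells and 198 FPKM in vehicle cells, a log2 ratio of -0.16 ± 0.20. Cdk6, its close relative, was at 37.4 FPKM in SAA1 cells and 39.5 FPKM in vehicle cells. Cdk4 was thus 4.74 times as abundant as Cdk6 in SAA1 cells and 5.01 times in vehicle cells. Cdk2, the partner of E-type and A-type cyclins, was at 45.9 FPKM in SAA1 cells and 44.1 FPKM in vehicle cells.

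**Figure D1:**
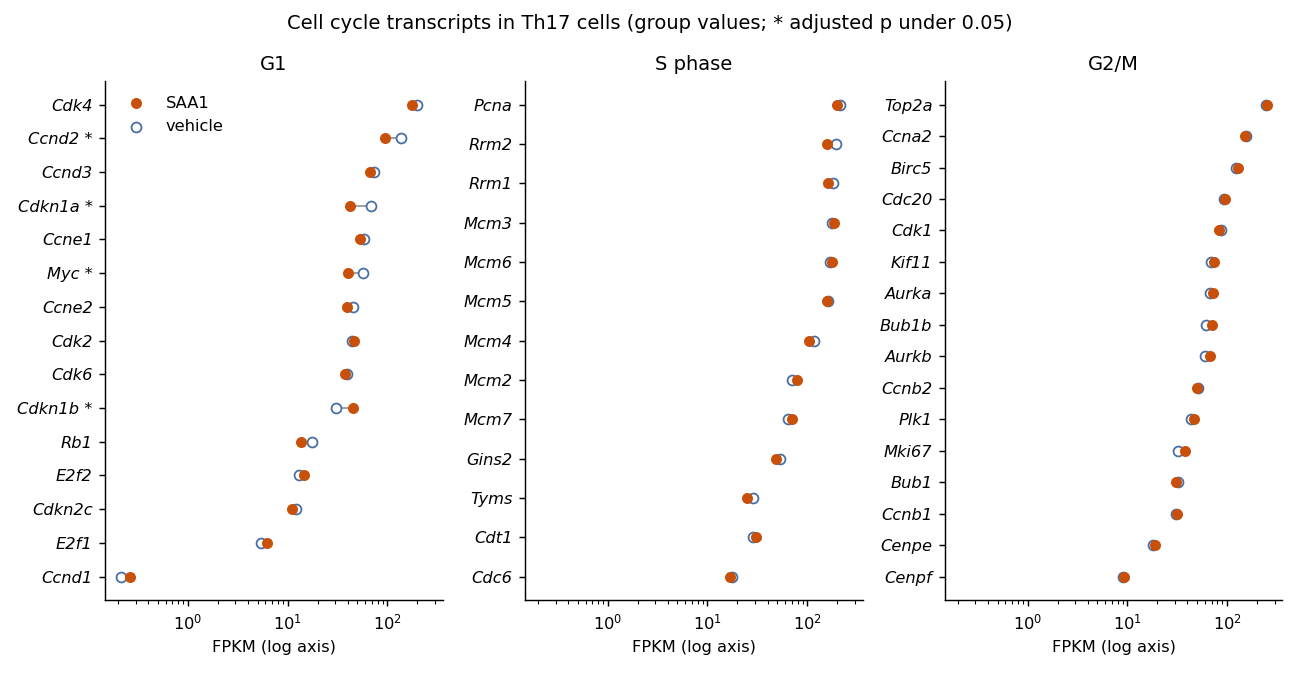
Level of each of the 44 cell cycle genes in FPKM on a log axis, by phase, with SAA1 cells as filled orange points and vehicle cells as open blue points (1 value per group, no error). The widest gaps are those of Cdkn1a, Cdkn1b, Ccnd2 and Myc, the genes marked with a star as called by the authors' Cuffdiff test. The next widest are those of Rb1, Rrm2 and Ccnd1, which have no star.

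Myc, the transcription factor of growth and of G1 entry, had 40.5 FPKM in SAA1 cells, against 56.4 FPKM in vehicle cells. It fell with SAA1, with a log2 ratio of -0.48 ± 0.20 and a Cuffdiff adjusted p in the authors' deposited table of 0.013. Rb1, which encodes the retinoblastoma protein that restrains E2F factors, was at 13.5 FPKM in SAA1 cells and 17.6 FPKM in vehicle cells. Its log2 ratio was -0.38 ± 0.24, with an unadjusted p of 0.022 and a Cuffdiff adjusted p in the authors' deposited table of 0.19, so it was not called.

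The activating E2F factors had values a little above vehicle without passing the test. E2f1 was at 6.18 FPKM in SAA1 cells and 5.47 FPKM in vehicle cells, a log2 ratio of 0.18 ± 0.25. E2f2 was at 14.5 FPKM in SAA1 cells and 13.1 FPKM in vehicle cells, a log2 ratio of 0.14 ± 0.21. The median log2 ratio of the 14 tested G1 genes, on the scale of FPKM plus 0.1, was -0.12, against -0.02 over all 10701 genes with at least 1 FPKM. Their ratios spread from -0.68 to 0.58, with 4 above 0 and 10 below.

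**Figure D2:**
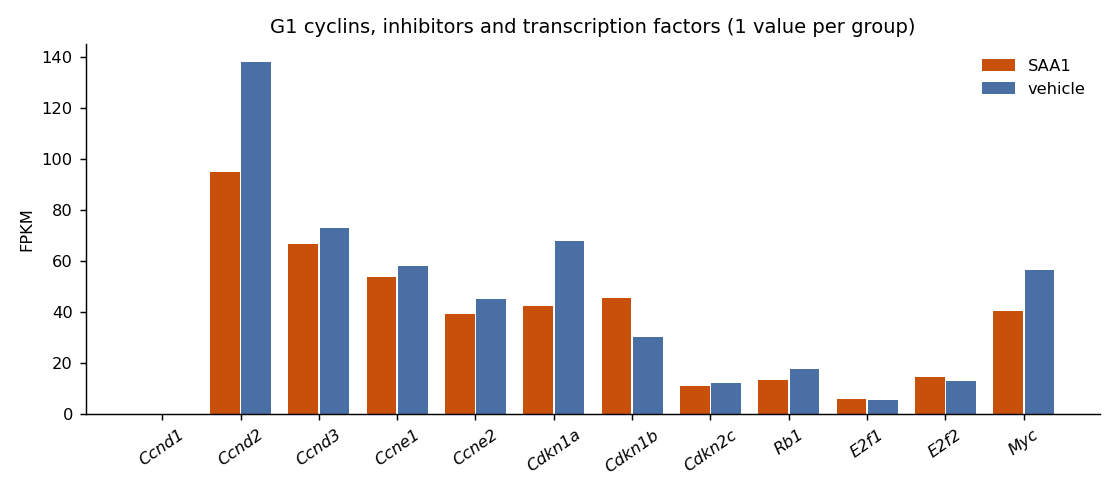
FPKM of the G1 cyclins, CDK inhibitors, Rb1, E2F factors and Myc, with SAA1 cells in orange to the left of vehicle cells in blue; bars start at 0 and there is 1 value per group, so no error is drawn. Ccnd2, Cdkn1a and Myc are lower and Cdkn1b is higher with SAA1, while Ccnd1 lies under 1 FPKM in both groups.

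Limits on these 4 calls come from the test and from the loci. The z value that belongs to the deposited p is 1.42 times the deposited test statistic at the median of tested genes, so the standard errors given here are wider than those behind the p. With a two-sided normal p taken from the statistic and adjusted over 11403 genes, 2.17% of genes were called, and of the 4 members Cdkn1a was called (adjusted p 0.041), while Cdkn1b (0.15), Ccnd2 (0.20) and Myc (0.36) were not.

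By position, Myc lies on chromosome 15 from 61985341 to 61990361 on mm10 and shares no exon base with another gene in GENCODE M21, and neither does Cdkn1b. The row of Ccnd2 shares its locus, chromosome 6 from 127125709 to 127212419, with the antisense RNA row 9330179D12Rik, which was at 0.662 FPKM in SAA1 cells and 0.753 FPKM in vehicle cells. In GENCODE M21, 7.86% of the exon bases of Ccnd2 and 7.68% of those of Cdkn1a are also exon of a gene on the opposite strand. How the authors' counting treated strand is not stated, so reads there could belong to either gene. Of the 44 member rows, 9 share a locus with another row, those of Ccnd1, Ccnd2, Ccnd3, Rb1, Ccne2, Mcm7, Gins2, Ccna2 and Cdc20. In GENCODE M21, 15 of the 44 share exon bases with another gene, among them Cdk4 (19.7%), Ccne2 (17.4%), Rb1 (14.9%) and Ccna2 (12.5%).

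None of the 13 S phase genes, which copy DNA or supply its building blocks, passed the test. The MCM2 to MCM7 proteins form the ring that unwinds DNA. Their transcripts summed to 774 FPKM in SAA1 cells and 756 FPKM in vehicle cells. Mcm3 was at 185 FPKM in SAA1 cells and 176 FPKM in vehicle cells, and Mcm6 at 177 FPKM in SAA1 cells and 168 FPKM in vehicle cells. These were the most abundant subunits. Mcm5 was at 159.5 FPKM in SAA1 cells and 162 FPKM in vehicle cells, and Mcm4 at 103 FPKM in SAA1 cells and 116 FPKM in vehicle cells. The less abundant Mcm2 was at 78.3 FPKM in SAA1 cells and 70.1 FPKM in vehicle cells, and Mcm7 at 71.2 FPKM in SAA1 cells and 64.7 FPKM in vehicle cells. None of the 6 was called, and their log2 ratios lay between -0.17 and 0.16.

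The row of Mcm7 shares its locus with the microRNA rows Mir106b, Mir25 and Mir93, and in GENCODE M21 172 exon bases of Mcm7 are also exon of a gene on its own strand, Mir25 and Mir93 among the genes that overlap it. Mir25 was listed at 159 FPKM in SAA1 cells and 25.1 FPKM in vehicle cells. Mir106b was listed at 35.8 FPKM in SAA1 cells and at 0 in vehicle cells, and Mir93 at 66.8 FPKM in SAA1 cells and at 0 in vehicle cells. These very short rows were not called, with Cuffdiff adjusted p in the authors' deposited table of 0.80 for Mir25, 0.67 for Mir106b and 0.65 for Mir93.

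Genes that load the MCM ring onto origins were not called. Cdc6, a loading factor, was at 16.8 FPKM in SAA1 cells and 17.7 FPKM in vehicle cells. Cdt1, its partner, was at 30.8 FPKM in SAA1 cells and 28.4 FPKM in vehicle cells. Gins2, a subunit of the active helicase, was at 48.4 FPKM in SAA1 cells and 52.8 FPKM in vehicle cells, and 67.3% of its exon bases are also exon of Gse1 on the opposite strand.

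The genes for nucleotide supply lay below vehicle in all 3 cases without passing the test. Rrm2, the small subunit of ribonucleotide reductase, was at 158 FPKM in SAA1 cells and 196 FPKM in vehicle cells. It had the largest ratio of the S genes in size, and its log2 ratio of -0.31 ± 0.20 had an unadjusted p of 0.028 and a Cuffdiff adjusted p in the authors' deposited table of 0.21. Rrm1, the large subunit, was at 163 FPKM in SAA1 cells and 179 FPKM in vehicle cells. Tyms, the thymidylate synthase, was at 24.7 FPKM in SAA1 cells and 28.9 FPKM in vehicle cells. The clamp of replication was not called. Pcna, the sliding clamp of DNA polymerase, was at 199.8 FPKM in SAA1 cells and 211 FPKM in vehicle cells. Over the 13 S genes the median log2 ratio was -0.08, with 5 above 0 and 8 below.

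The mitotic genes had the narrowest spread of ratios among the phases. The cyclins and kinase of mitotic entry were at similar levels in both groups. Ccna2, cyclin A2, was at 149.7 FPKM in SAA1 cells and 154 FPKM in vehicle cells. Ccnb1 was at 31.6 FPKM in SAA1 cells and 30.5 FPKM in vehicle cells, and Ccnb2 at 50.4 FPKM in SAA1 cells and 50.9 FPKM in vehicle cells. Cdk1, the kinase they bind, was at 83.0 FPKM in SAA1 cells and 86.9 FPKM in vehicle cells, a log2 ratio of -0.07 ± 0.20.

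The kinases that build and check the spindle were not called. Plk1 was at 46.1 FPKM in SAA1 cells and 43.0 FPKM in vehicle cells. Aurka was at 73.0 FPKM in SAA1 cells and 67.4 FPKM in vehicle cells. Its relative Aurkb was at 68.0 FPKM in SAA1 cells and 60.1 FPKM in vehicle cells. The checkpoint genes Bub1 and Bub1b differed in sign. Bub1 was at 31.0 FPKM in SAA1 cells and 32.2 FPKM in vehicle cells, and Bub1b at 70.2 FPKM in SAA1 cells and 61.0 FPKM in vehicle cells. Cdc20, which activates the complex that ends mitosis, was at 95.3 FPKM in SAA1 cells and 93.4 FPKM in vehicle cells.

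Structural and motor proteins of mitosis were not called either. Top2a, which untangles DNA, was the most abundant of all 44 members, at 252 FPKM in SAA1 cells and 244 FPKM in vehicle cells. Birc5, survivin, was at 129 FPKM in SAA1 cells and 122 FPKM in vehicle cells, and the spindle motor Kif11 at 74.5 FPKM in SAA1 cells and 68.3 FPKM in vehicle cells. The kinetochore genes were lower in level, with Cenpe at 18.8 FPKM in SAA1 cells and 18.2 FPKM in vehicle cells and Cenpf at 9.29 FPKM in SAA1 cells and 9.096 FPKM in vehicle cells. Mki67, the proliferation marker Ki-67, had the largest G2/M ratio, with a log2 ratio of 0.22 ± 0.20 and a Cuffdiff adjusted p in the authors' deposited table of 0.49.

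Over the 16 G2/M genes the median log2 ratio was 0.05, with 12 above 0 and 4 below, against 46.1% above 0 over all genes with at least 1 FPKM. Their ratios spread from -0.07 to 0.22, a width of 0.29, against 0.47 for the S genes and 1.26 for the G1 genes. The wider lists given below did not keep this order, with widths of 1.00 for other G2/M, 0.75 for other S phase and 0.79 for other G1 genes. For each of the 29 S and G2/M genes the 95% interval from the test statistic held 0, and the intervals ran from -0.70 at the lowest to 0.62 at the highest. They take a wider error than that behind the deposited p. Rrm2 is among these genes, though its unadjusted Cuffdiff p was 0.028. A missed threshold does not show that the levels were equal.

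**Figure D3:**
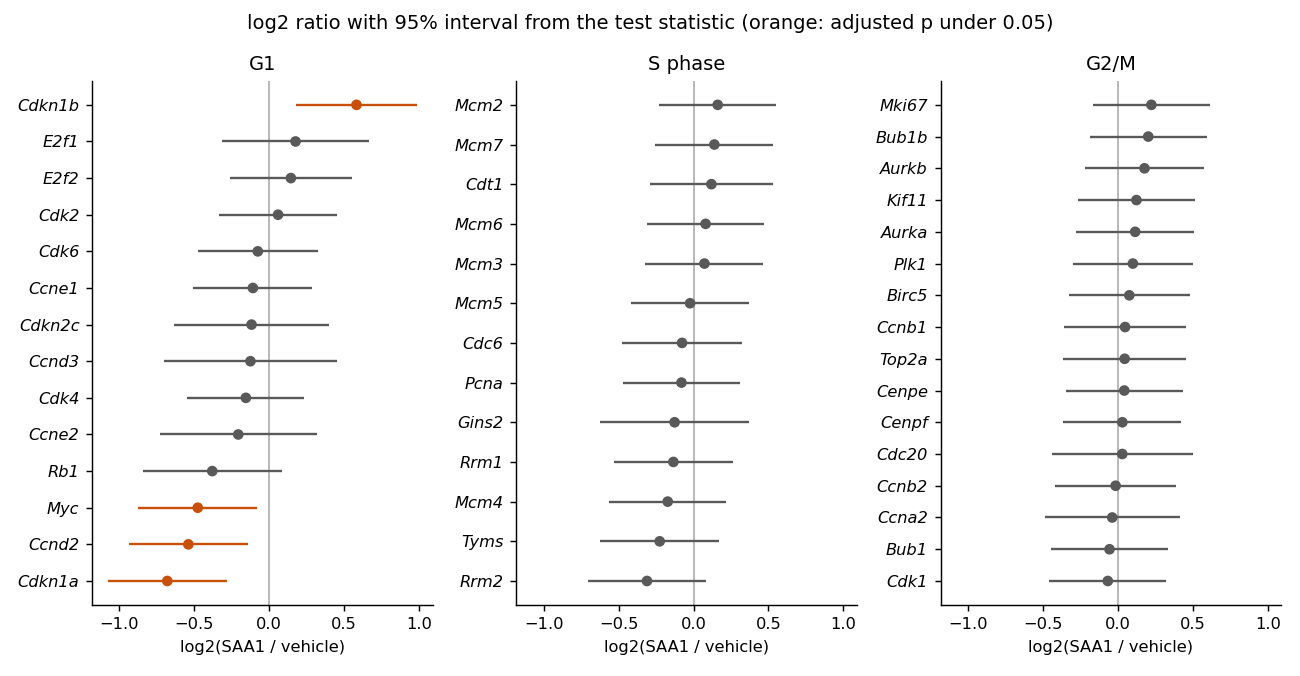
log2 ratio of SAA1 over vehicle for the 43 tested members, by phase, with a 95% interval from the authors' test statistic as a line and called genes in orange. The intervals of Cdkn1a, Ccnd2 and Myc lie below 0 and that of Cdkn1b above 0, while the intervals of the 29 S and G2/M genes all hold 0. The intervals take a wider error than that behind the calls.

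The wider lists of cell cycle genes held few calls. Over all tested genes, 6.52% were called and 15.8% had a Cuffdiff p under 0.05 before adjustment. Of 30 tested genes among 33 other G1 regulators, 0 were called by Cuffdiff in the authors' deposited table, and 5 had a p under 0.05 before adjustment. Of these, the largest ratios were those of E2f6, Lin54 and Ccng2. E2f6, a repressive E2F factor, was at 10.04 FPKM in SAA1 cells and 13.7 FPKM in vehicle cells. Lin54, a MuvB subunit, was at 19.1 FPKM in SAA1 cells and 15.1 FPKM in vehicle cells. Ccng2, an atypical cyclin, was at 38.3 FPKM in SAA1 cells and 31.1 FPKM in vehicle cells. Of 52 other S phase genes, 0 were called by Cuffdiff in the authors' deposited table, and 6 had a p under 0.05 before adjustment.

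In that S phase list Orc5 and Pold2 had ratios below 0 without passing the test, and both rows share a locus with another gene. Orc5, of the origin recognition complex, was at 32.2 FPKM in SAA1 cells and 42.5 FPKM in vehicle cells. Pold2, of DNA polymerase delta, was at 52.6 FPKM in SAA1 cells and 69.2 FPKM in vehicle cells. The list's median log2 ratio was -0.05, with 20 of 52 above 0.

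Of 74 other G2/M genes, 1 was called, or 1.35%, beside 6.52% of all tested genes. Cenpm, a subunit of the inner kinetochore, fell to 11.8 FPKM in SAA1 cells, against 17.6 FPKM in vehicle cells, with a log2 ratio of -0.57 ± 0.24 and a Cuffdiff adjusted p in the authors' deposited table of 0.017. The list's median log2 ratio was 0.07, with 52 of 74 above 0, beside 12 of 16 for the G2/M members.

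The partners and targets of MYC held 1 call among 24 tested, or 4.17%, beside 6.52% of all tested genes. Mxi1, a MAX partner that opposes MYC, rose to 9.40 FPKM in SAA1 cells, against 5.65 FPKM in vehicle cells, with a log2 ratio of 0.73 ± 0.22 and a Cuffdiff adjusted p in the authors' deposited table of 0.0019. The other 23 were not called, and over the 24 the median log2 ratio was -0.11, with 7 above 0 and 17 below. Over all genes with at least 1 FPKM, 53.9% lay below 0. The list holds partners such as Mxi1 together with targets, so its median does not stand for targets alone.

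Other targets of p53, the factor that induces Cdkn1a, held the most calls of the wider lists. All 16 listed genes had a log2 ratio below 0, and 7 were called lower and 0 higher in the authors' deposited table, or 43.8%, beside 2.55% of all tested genes called lower. Their median log2 ratio was -0.45, against -0.02 over all genes with at least 1 FPKM. The list was chosen with earlier results of these data known, so these shares describe it and are not an independent test. Ccng1, which encodes cyclin G1, fell to 200 FPKM in SAA1 cells, against 311 FPKM in vehicle cells, a log2 ratio of -0.64 ± 0.20.

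The other calls span growth and death. Phlda3, an inhibitor of AKT, fell to 33.6 FPKM in SAA1 cells, against 55.6 FPKM in vehicle cells. Zmat3, an RNA-binding protein whose row shares a locus with another gene, fell to 14.4 FPKM in SAA1 cells, against 23.8 FPKM in vehicle cells. Pmaip1, the death protein NOXA, fell to 6.63 FPKM in SAA1 cells, against 11.1 FPKM in vehicle cells. These, Ccng1 and Eda2r had the smallest Cuffdiff adjusted p in the authors' deposited table, 0.0019, a floor that 300 rows share.

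Receptors and a nuclease completed the calls. Eda2r, a TNF receptor family member, fell to 2.02 FPKM in SAA1 cells, against 3.99 FPKM in vehicle cells, and Tnfrsf10b, the TRAIL receptor, to 8.09 FPKM in SAA1 cells, against 11.7 FPKM in vehicle cells. Aen, an exonuclease of apoptosis, fell to 25.8 FPKM in SAA1 cells, against 36.3 FPKM in vehicle cells. Mdm2 and Trp53, named after their values were seen, were not called. Mdm2, which degrades p53, was at 60.0 FPKM in SAA1 cells and 77.6 FPKM in vehicle cells, with a Cuffdiff adjusted p in the authors' deposited table of 0.10. Trp53, which encodes p53, was at 36.8 FPKM in SAA1 cells and 40.7 FPKM in vehicle cells, with a Cuffdiff adjusted p in the authors' deposited table of 0.76. With the normal p of the statistic, Phlda3 and Zmat3 were the 2 of the 7 still called.

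The promoters of Cdkn1a and Ccng1 printed above each hold a p53 element, searched for after the Cdkn1a promoter had been read. It was taken as the p53 consensus of paired half-sites of 10 letters side by side, with at most 1 mismatch in the 20 letters. The inner C and G of each half-site had to be kept. In Cdkn1a the match lies 32 bases before the first RefSeq start, on GRCm38 chromosome 17 from 29090928 to 29090947, and 2822 bases before the second start. Among promoters of the same window it was found in 22 of 27025 genes, or 0.0814%, in Cdkn1a alone of the 35 matched members and in Ccng1 alone of 12 matched genes of the p53 list. Of the 17492 protein-coding genes among them, 11 held it, or 0.0629%. A match does not show that p53 was bound.

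**Figure D4:**
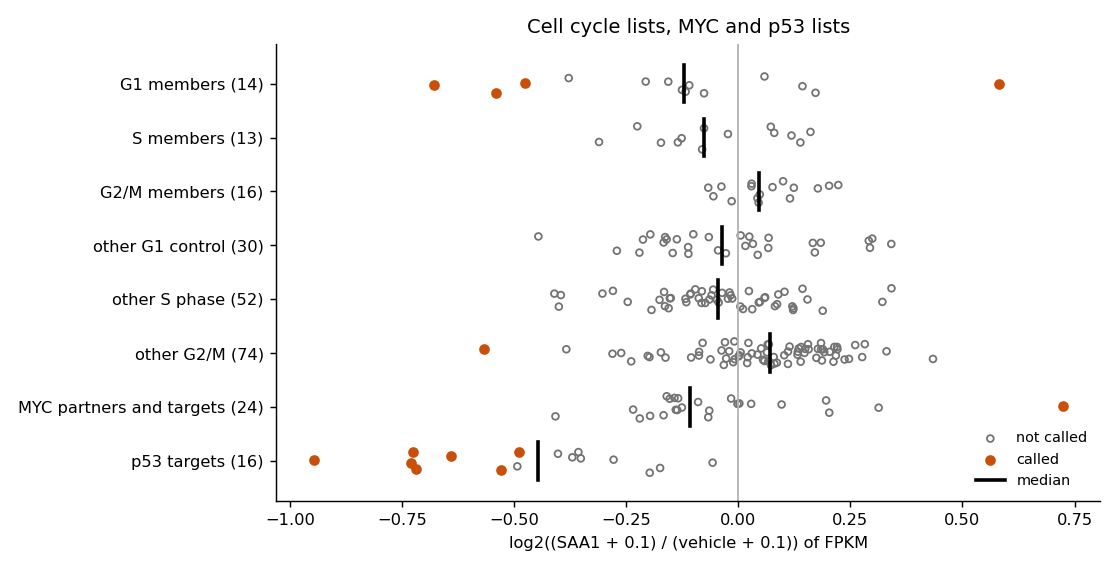
log2 ratio of SAA1 over vehicle, from FPKM plus 0.1, of each tested gene with at least 1 FPKM in the phases and the wider lists, with called genes in orange, the others as open circles and the list's median as a black line (number of genes in brackets; vertical scatter only separates points). The p53 list lies wholly below 0 with a median of -0.45, and the S and G2/M lists lie around 0.

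The labels were checked against markers. Il17a was at 568 FPKM in SAA1 cells and 56.0 FPKM in vehicle cells, and the 8 T cell markers lay between 28.2 and 406 FPKM in SAA1 cells and between 39.1 and 443 FPKM in vehicle cells. Of the T cell markers, Thy1 was called higher and Cd3e lower. Of 7 myeloid markers found, 1 reached 1 FPKM (Cd68), of 5 B cell markers 0, and of 4 CD8 and NK cell markers 1 (Cd8b1, at 4.24 FPKM in SAA1 cells and 4.32 FPKM in vehicle cells). Their sums were 1.47 FPKM in SAA1 cells and 2.18 FPKM in vehicle cells for the myeloid list, 1.53 FPKM in SAA1 cells and 2.01 FPKM in vehicle cells for the B cell list, and 4.36 FPKM in SAA1 cells and 4.48 FPKM in vehicle cells for the CD8 and NK list, where Klrb1c was at 0 in both groups. Read depth is unknown.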

How the data were processed

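Total RNA of 4 Th17 libraries, 2 with SAA1 and 2 with vehicle grouped by their titles, was sequenced with a TruSeq kit, per the labels' protocols. TopHat2 and Cuffdiff, without versions, and the builds mm9 and mm10 are named in the submitters' processing notes. How libraries were scaled and strand was treated is not stated. The authors' table holds 1 FPKM value per group and gene, pooled over both libraries, per the file headers. It also holds a deposited test statistic, a score of the log2 ratio over its error, and a deposited p-value and q-value for each of 11481 tested rows. The deposited q-value equals a Benjamini-Hochberg adjustment of the deposited p to within 5.23e-07. Depth per library is unknown, so no counting interval is given.

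The log2 ratios were recomputed as SAA1 over vehicle with Python 3.11.15 and pandas 2.3.3, since the deposited log2 column holds error text. Medians use FPKM plus 0.1 over genes that reached 1 FPKM in a group; the pseudocount understates changes of low genes. Calls are the authors', and limma or a count test was foreseen for values per library only. The calling code was tested on simulated data in which p followed from the statistic, so the gap between the deposited p and statistic was not examined there. Loci are on mm10, since all 44 members overlap their GENCODE M21 gene on GRCm38, with starts counted from 1. All members are named, and from each wider list the called genes or, with none called, the 3 with the largest ratio; a gene that this rule names is not reported here. The members, lists and tests were chosen with earlier results of these data known.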

Additional observations from a re-analysis of the deposited data

How the results depend on the processing

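The table gives 1 value per group, so depth, the spread between libraries and the weight of 1 library could not be examined, and leaving out each replicate, limma and the count tests were not run. No paired analysis was possible because the numbers 1 and 2 in the titles have no values of their own in the table.

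The calls among the members depended on how the error was taken. With the normal p of the test statistic, 0 members were called higher and 1 lower (Cdkn1a), with 0 and 1 among the G1 genes, while 0 other G2/M genes and 2 p53 targets were called lower. This setting takes another error than the deposited p, whose error model is not known, and leaves out 78 rows without a usable statistic; the cause was not tested. With a fold of at least 1.5 the counts were again 0 higher and 1 lower for the members and for the G1 genes, and 0 lower for the other G2/M genes, since Ccnd2, Cdkn1b, Myc and Cenpm lie under that fold. Aen and Tnfrsf10b do too, which leaves 5 p53 targets lower. At an adjusted p under 0.01, 9 of the 13 named calls were kept, and Myc, Cenpm, Aen and Tnfrsf10b were lost, which leaves 2 members, 0 other G2/M genes and 5 p53 targets lower. At an adjusted p under 0.1, 1 other G1, 1 other S phase, 2 other G2/M and 1 MYC gene were lower. At an unadjusted p under 0.05 there were 5 members lower, 1 of them an S gene. There were also 4 other G1 genes higher and 1 lower, 2 other S phase genes higher and 4 lower, 2 other G2/M genes higher and 2 lower, 1 MYC gene lower and 11 p53 targets lower. Counts among rows with at least 1 FPKM, adjusted again, and with rows that share a locus left out (chosen after seeing the data; it drops Ccnd2 and Zmat3) stayed within 1.5 times the values given. The medians moved by at most 0.071 over 63 settings of pseudocount, minimum, centring, mean and shared loci. Of the single log2 ratios, that of Ccnb2 changed sign, to 0.0057 when centred on all expressed genes.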
